A study of Homo sapiens with 6 samples.

Results

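Genes that hold epithelial cells together, that build their keratin filaments, or that mark the epithelial-to-mesenchymal transition (EMT) were followed in A549, a cell line long established from a human lung adenocarcinoma. Of 44 genes listed by name, 40 had at least one probe set annotated with that gene alone, out of 11963 such genes on the array. The brightest probe set over all 6 arrays stood for each gene. CTNND1, CLDN12, F11R and KRT17 were not measured by this rule. Every array is from this 1 line, with cells seeded for 12 h in medium with 10% FBS. The series' design text adds that every group was moved to serum-free medium and given EGF. The 2 PIAS3 arrays came from cells transfected with the pCMV5 plasmid encoding human PIAS3, a SUMO ligase that inhibits STAT3. The 2 STAT3 siRNA arrays came from cells transfected with siRNA against that transcription factor. Both were harvested 48 h after transfection. The 2 EGF control arrays came from stimulated cells described as untreated, with no time given. The labels name no empty plasmid and no non-targeting siRNA, so an effect of transfection as such and an effect of its cargo cannot be told apart. Nothing in the labels says that the 2 arrays of a group were separate cultures, so each p-value reflects only the spread between these arrays.

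Cadherins join neighbouring cells at adherens junctions and are anchored to actin by catenins. Claudins and occludin seal tight junctions, and desmosomes tie the keratin filaments of adjacent cells to each other. During EMT, transcription factors of the SNAI and ZEB families repress epithelial genes, often through E-box sequences, and cells trade CDH1 (E-cadherin) for CDH2 (N-cadherin) and the intermediate filament vimentin (VIM). A549 cells are known for carrying both epithelial keratins and vimentin and for undergoing EMT when given TGF-beta.

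Levels below are log2 values per array, and differences are log2 differences from a limma fit of all 6 arrays, with the fit's standard error (SE, n = 2 per group). P-values were adjusted by the Benjamini-Hochberg method across the 22215 probe sets tested, and a gene is said to pass below 0.05. In the check of the labels, the transcript of PIAS3 read 7.70 and 7.71 in the controls, 7.5 and 7.64 in the siRNA arrays and 7.78 and 7.72 in the PIAS3 arrays, a difference of 0.04 ± 0.11 (adjusted p = 0.919). Its 1 probe set thus showed no clear excess in the arrays labelled PIAS3, and whether it lies in the part that the plasmid carries was not known here. STAT3 read 10.50 and 10.43 in the controls, 10.23 and 9.94 in the siRNA arrays and 10.18 and 9.70 in the PIAS3 arrays, by the brighter probe set. Its differences of -0.38 ± 0.18 with the siRNA (adjusted p = 1) and -0.53 ± 0.18 with PIAS3 (adjusted p = 0.254) did not pass. The dimmer STAT3 probe set read 10.02 and 10.03 in the controls. It read 9.78 and 9.62 in the siRNA arrays and 9.62 and 9.24 in the PIAS3 arrays. Its differences from control were -0.33 ± 0.15 and -0.60 ± 0.15 (adjusted p = 0.145 for PIAS3). By both probe sets the mean was lower in the PIAS3 arrays than in the siRNA arrays. The probes thus do not set either label apart, and "with PIAS3" and "with the siRNA" below mean the arrays labelled so. The arrays' medians lay between 6.63 and 6.72. The poly-A spike-ins added to the samples stood at a median of 1.41 in PIAS3 replicate 1, relative to the mean of the controls, and of -0.36 to -0.13 in the other transfected arrays. That array also had 35 interferon-stimulated genes at a median of 3.34 above control, where the other arrays gave -0.07 to 0.02. For actin, the gap between 3' and 5' probe sets was 0.43 in PIAS3 replicate 1 and 0.28 in replicate 2, beside 0.10 to 0.23 elsewhere. The same gap for GAPDH was 0.40 and 0.37 in the PIAS3 arrays and 0.29 to 0.40 in the others. STAT3 siRNA replicate 2 differed from PIAS3 replicate 2 by an SD of 0.22 over the 40 genes, and from siRNA replicate 1 by 0.39. Over all genes these SDs were 0.18 and 0.26. There siRNA replicate 1 differed from the 2 controls by 0.21 and 0.20. Values with and without the PIAS3 and siRNA arrays are therefore given where they decide a result.

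The epithelial label was checked first. KRT8 and KRT18, the paired keratins of simple epithelia, lay between 12.39 and 13.79 in all 6 arrays. Control probe sets for a transcript that human cells lack spanned 3.26 to 3.93, and EPCAM and CDH1 also lay above that range in every array. Probe sets differ in their own background, so a level above the range does not show by itself that a gene is expressed. Among the 7 measured markers of alveolar type II cells and the 5 of airway basal cells, 0 lay within the range in all arrays. The summed level of the type II markers was 9.47 to 9.63 in the 3 arrays siRNA replicate 2, PIAS3 replicate 1 and PIAS3 replicate 2, and 9.70 to 9.72 in the others. Markers of fibroblasts summed to 13.08 to 13.11 in the 4 transfected arrays and 13.36 to 13.43 in the controls, while the median difference of the 14 markers with PIAS3 was -0.01 (7 positive, 7 negative, 1 with an unadjusted p under 0.05). S100A4, the marker with the highest readings in that sum, gave 13.03 and 13.09 in the controls and 12.71 to 12.89 in the transfected arrays. SPARC, a secreted matrix protein on that list, read 9.95 and 10.14 in the controls, 9.90 and 7.05 with the siRNA and 6.48 and 7.05 with PIAS3. Leukocyte markers summed to 9.23 to 9.51, with 1 of 15 within the absent range in every array, and endothelial markers to 8.55 to 8.69 over all arrays. Of the 14 fibroblast markers, LUM and POSTN lay within the absent range in all 6 arrays. The part of other cell types in the results below was not tested. In a bulk sample, fewer cells of one kind and less RNA per cell cannot be told apart.

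In the arrays labelled PIAS3, PODXL fell and was the only one of the 40 genes past the threshold. The genes with the next smallest p-values lay in both directions: CDH1 stood above its control level, while CDH2, the EMT factor SNAI2, the keratin KRT19 and the tight junction gene CLDN1 stood below. The structural components KRT8, KRT18, CTNNB1 and TJP1 differed from control by at most 0.18 in size. Over all probe sets 0.0990% passed in this comparison, 0.0270% higher and 0.0720% lower, and 0.125% of genes by their brightest probe set. At an unadjusted p under 0.05, 5 of 40 genes were higher and 9 lower (35% together), against 14.6% of all genes (7.13% higher and 7.44% lower). Without EGF control replicate 2 the number was 9, with 2 higher and 7 lower. The median difference of the 40 genes was -0.09, beside -0.00 for all genes, and it was -0.18 without PIAS3 replicate 1. The arrays of the groups did not overlap for 10 genes that were higher and 19 that were lower, and for 22.4% and 23.7% of all genes (46.1% together). The genes were chosen with earlier results of these data known. Shares set beside those of all genes, here and below, are therefore no test of the list.

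**Figure D1:**
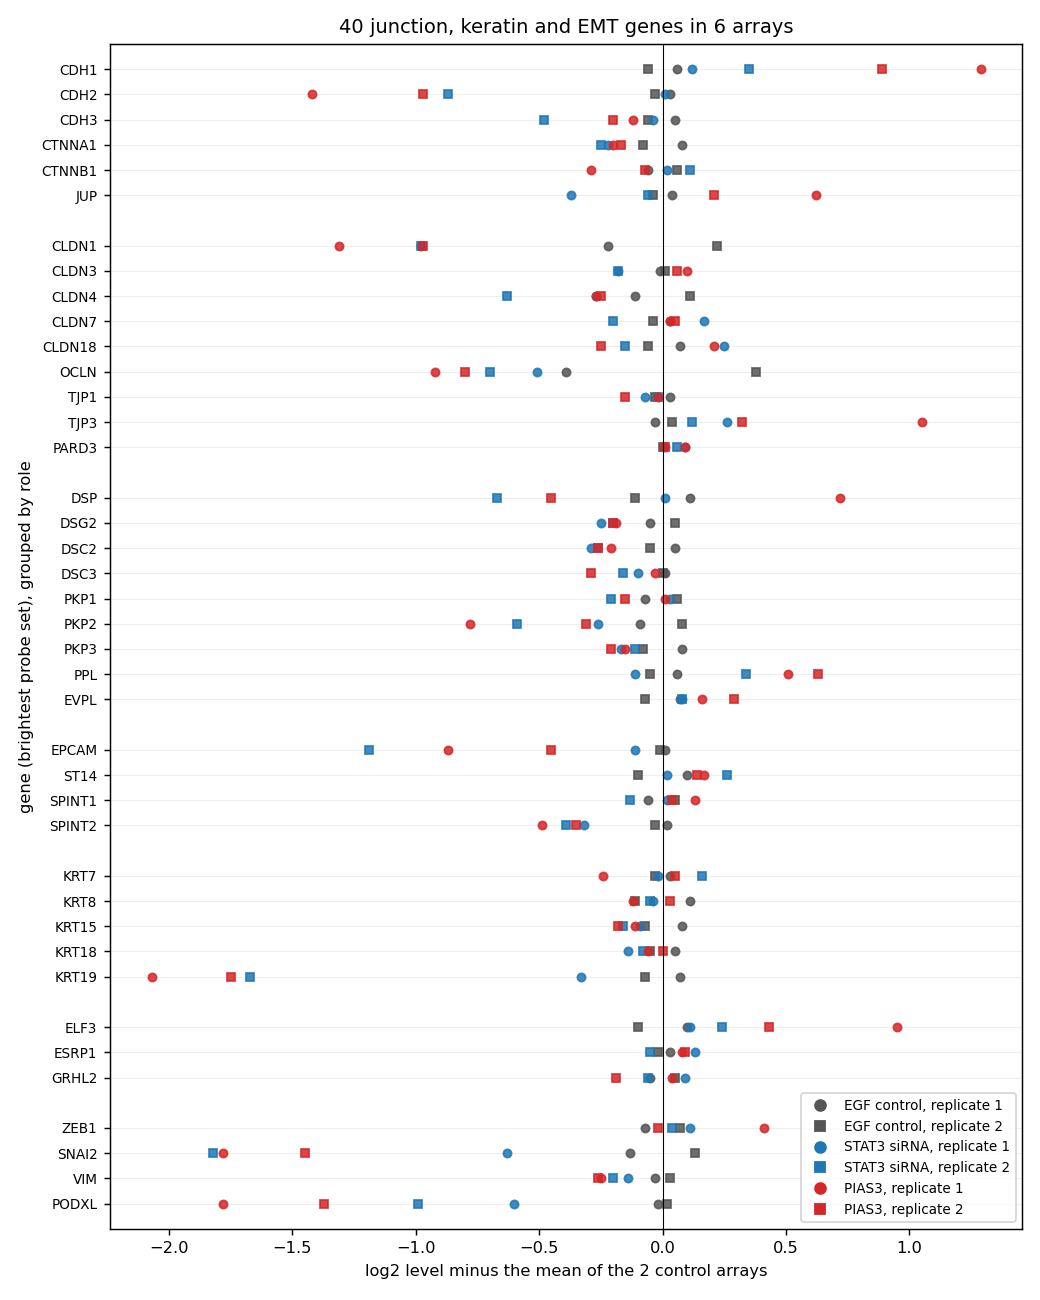
Each row is one of the 40 measured genes, grouped by role, and the x axis is its log2 level in an array minus the mean of the 2 control arrays (grey, STAT3 siRNA blue, PIAS3 red, circles for replicate 1 and squares for replicate 2). KRT19, SNAI2 and PODXL lie furthest to the left in the PIAS3 arrays and CDH1 furthest to the right, while KRT8, KRT18 and TJP1 stay near 0.

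Among the mesenchymal and EMT markers, PODXL encodes podocalyxin, an anti-adhesive sialomucin of the cell surface. It read 10.78 and 10.82 in the controls, 10.20 and 9.81 with the siRNA, and 9.02 and 9.43 with PIAS3. All 4 transfected arrays lay below both controls, and both PIAS3 arrays below both siRNA arrays. PODXL fell by 1.58 ± 0.18 with PIAS3 (2.98-fold, adjusted p = 0.0484). Over the alternatives its adjusted p ran from 0.00795 to 0.637. PODXL no longer passed when PIAS3 replicate 1 was left out (-1.37, adjusted p = 0.162), without EGF control replicate 1 (-1.59, adjusted p = 0.561) and without EGF control replicate 2 (-1.56, adjusted p = 0.637), and also with quantile normalization repeated (-1.53, 0.0537) or dim probe sets left out (-1.58, 0.0516). The siRNA difference was -0.79 ± 0.18 (adjusted p = 0.648), and PIAS3 stood below the siRNA by -0.78 ± 0.18 (adjusted p = 0.607).

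SNAI2 (Slug) is a zinc finger repressor of CDH1 and a driver of EMT. Its levels were 6.83 and 7.09 in the controls, 6.33 and 5.14 with the siRNA, and 5.18 and 5.51 with PIAS3. Both transfected groups lay wholly below the controls, and siRNA replicate 2 was the lowest of all arrays. The difference was -1.62 ± 0.35 with PIAS3 (adjusted p = 0.117) and -1.23 ± 0.35 with the siRNA (adjusted p = 0.823), and neither passed. In a fit of the PIAS3 and control arrays alone SNAI2 did pass (adjusted p = 0.0229), where 262 of 22215 probe sets were called. CDH1, CDH2 and KRT19 passed there too, and leaving out either siRNA array gave the same fit. SNAI2 did not pass with array weights (adjusted p = 0.069) or cyclic loess (0.103). The siRNA value was -0.63 without siRNA replicate 2 and -1.82 without siRNA replicate 1.

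VIM, the main intermediate filament of mesenchymal cells, read 13.42 and 13.48 in the controls, 13.31 and 13.25 with the siRNA, and 13.20 and 13.19 with PIAS3. The groups did not overlap, but the span was narrow, and the differences of -0.17 ± 0.10 and -0.25 ± 0.10 did not pass (adjusted p of 1 and 0.33). Values near the top of an array's range can be compressed, so a small difference there is a limited measure.

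ZEB1, a zinc finger repressor of the ZEB family, gave 7.70 and 7.84 in the controls, 7.88 and 7.81 with the siRNA, and 8.18 and 7.75 with PIAS3. Its groups overlapped in all 3 comparisons. The PIAS3 difference was 0.20 ± 0.16 (adjusted p = 0.662) and turned to -0.02 without PIAS3 replicate 1. Its other probe sets gave -0.09 ± 0.11 and -0.08 ± 0.11. SNAI2 thus stood apart from control in both PIAS3 arrays while ZEB1 did not. Of the 4 markers of this kind, 0 were higher and 3 lower with PIAS3 at an unadjusted p under 0.05 (median -0.91), and 0 and 2 with the siRNA (median -0.48), where 7.44% and 3.06% of all genes were lower.

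The cadherins came next. CDH1, the epithelial cadherin, read 8.31 and 8.19 in the controls, 8.37 and 8.60 with the siRNA, and 9.54 and 9.14 with PIAS3. Both PIAS3 arrays stood above every other array. The difference from control was 1.09 ± 0.16 (2.13-fold), and it did not pass at an adjusted p of 0.0761. CDH1 passed in a fit of the PIAS3 and control arrays alone (adjusted p = 0.0494), where 262 of 22215 probe sets were called. It also passed with array weights (0.036), where 143 were called. It did not pass with quantile normalization repeated (0.0843) or cyclic loess (0.0726). CDH1 differed by 1.30 without PIAS3 replicate 2 and by 0.89 without PIAS3 replicate 1. Its second, dimmer probe set gave 0.19 ± 0.12 (adjusted p = 0.551), with 4.99 and 5.01 in the controls and 5.14 and 5.24 with PIAS3. The 2 probe sets therefore differ in size. With the mean of both, the difference was 0.64. By the brighter probe set the PIAS3 arrays exceeded the siRNA arrays by 0.85 ± 0.16 (adjusted p = 0.607). The dimmer one read 5.38 and 5.16 with the siRNA and did not show this order. Its difference between PIAS3 and the siRNA was -0.08 ± 0.12, and between the siRNA and control 0.27 ± 0.12.

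CDH2, the neural cadherin that carcinoma cells often gain in EMT, gave 10.31 and 10.25 in the controls and 8.86 and 9.31 with PIAS3. With the siRNA it read 10.29 in replicate 1, at the control level, and 9.41 in replicate 2, near PIAS3 replicate 2. The PIAS3 difference was -1.19 ± 0.28 (adjusted p = 0.132), with -1.0 ± 0.22 by the second probe set. CDH2 passed in the fit of the PIAS3 and control arrays alone (adjusted p = 0.0447), where 262 of 22215 probe sets were called. It did not pass with array weights (0.0782) or cyclic loess (0.134). The siRNA difference of -0.43 ± 0.28 (adjusted p = 1) turned to 0.01 without siRNA replicate 2 and was -0.87 without siRNA replicate 1. CDH1 above control and CDH2 below it were read in the same PIAS3 arrays, and neither passed in the fit of all 6 arrays. CDH3 (P-cadherin) differed by -0.15 ± 0.16.

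Of the catenins, which carry the cadherin's link to actin, JUP (plakoglobin) read 9.64 and 9.56 in the controls, 9.23 and 9.54 with the siRNA, and 10.22 and 9.81 with PIAS3. It stood above control with PIAS3 by 0.41 ± 0.17 (adjusted p = 0.344), by 0.21 without PIAS3 replicate 1, and above the siRNA by 0.63 ± 0.17 (adjusted p = 0.607). CTNNB1 (beta-catenin), which also serves Wnt signalling, read 10.05 and 10.17 in the controls, 10.13 and 10.22 with the siRNA, and 9.82 and 10.04 with PIAS3. It differed by -0.18 ± 0.12 with PIAS3, and CTNNA1 (alpha-catenin) by -0.19 ± 0.11. Of the 6 measured adherens junction genes, 2 were higher and 1 lower at an unadjusted p under 0.05 with PIAS3, where 7.13% and 7.44% of all genes were, and 0 passed after adjustment.

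**Figure D2:**
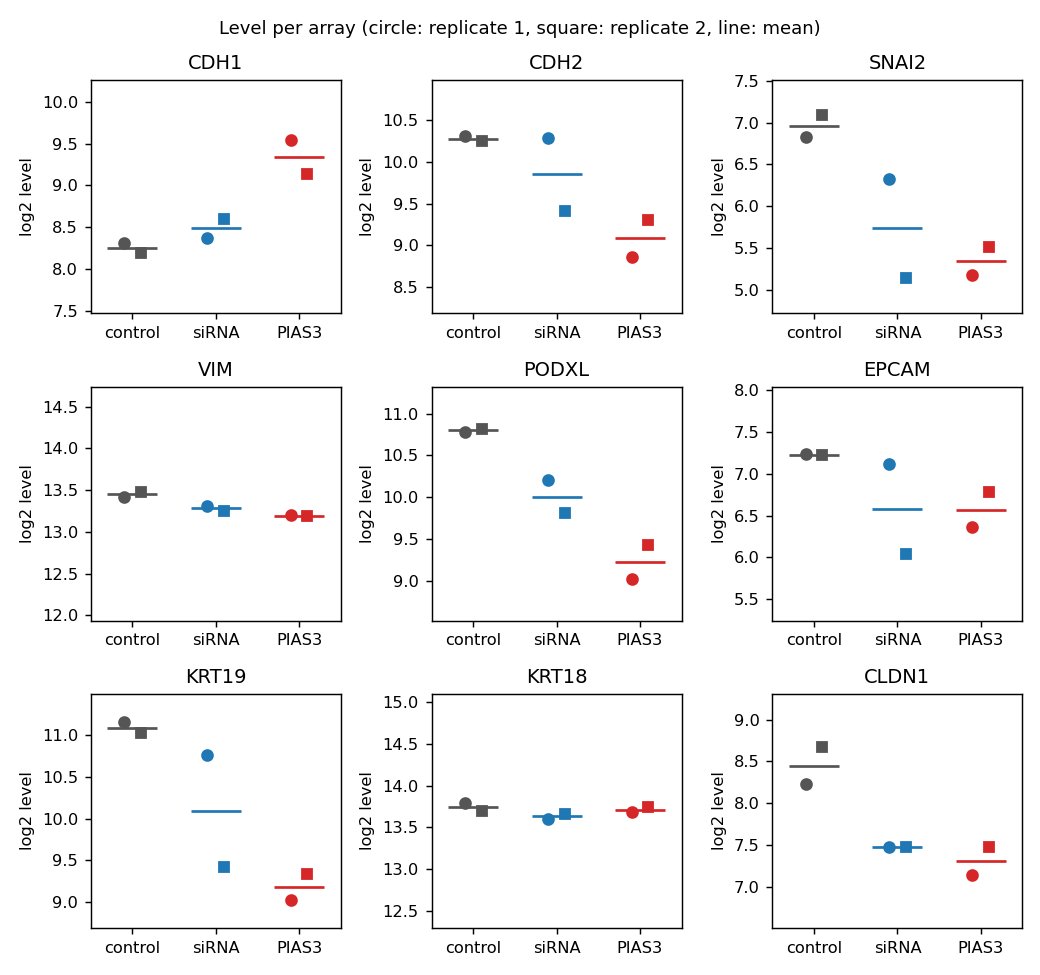
Log2 level of 9 genes in each array, with circles for replicate 1, squares for replicate 2 and a line at the group mean, and y axes of equal span. CDH2, SNAI2, EPCAM and KRT19 differ widely between the 2 siRNA arrays, while CLDN1 reads 7.47 in both, and KRT18 and VIM vary little.

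Of the tight junction genes, CLDN1 (claudin-1, a sealing claudin) stood below control in both transfected groups. It read 8.23 and 8.67 in the controls, 7.47 and 7.47 with the siRNA, and 7.14 and 7.48 with PIAS3. Every transfected array lay below both controls, and both siRNA arrays were alike. The differences were -1.14 ± 0.18 with PIAS3 (2.2-fold, adjusted p = 0.0792) and -0.98 ± 0.18 with the siRNA (adjusted p = 0.411), and neither passed. CLDN1 differed by -1.31 without PIAS3 replicate 2 and by -0.97 without PIAS3 replicate 1. It did not pass with array weights (adjusted p = 0.0542) or in a fit of the PIAS3 and control arrays alone (0.0745).

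OCLN (occludin) read 6.11 and 6.88 in the controls, 5.99 and 5.80 with the siRNA, and 5.58 and 5.70 with PIAS3. The lower control array lay only slightly above the higher siRNA array. The differences were -0.86 ± 0.23 and -0.60 ± 0.23 (adjusted p of 0.181 with PIAS3 and 1 with the siRNA). TJP3 (ZO-3), a scaffold that binds claudins from inside the cell, read 5.52 and 5.59 in the controls, 5.81 and 5.67 with the siRNA, and 6.60 and 5.87 with PIAS3. Its PIAS3 difference of 0.68 ± 0.22 (adjusted p = 0.237) was 0.32 without PIAS3 replicate 1, the array with raised interferon-stimulated genes. It was 1.04 without PIAS3 replicate 2. The second TJP3 probe set gave 0.52 ± 0.18.

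CLDN4, a claudin that limits sodium permeability, read 6.13 and 6.35 in the controls, 5.97 and 5.61 with the siRNA, and 5.97 and 5.99 with PIAS3. Its difference was -0.45 ± 0.15 with the siRNA (adjusted p = 0.944) and -0.26 ± 0.15 with PIAS3. CLDN3 gave the same reading of 7.16 in both siRNA arrays, while the controls gave 7.33 and 7.35 and the PIAS3 arrays 7.44 and 7.40, and PIAS3 stood above the siRNA by 0.26 ± 0.10 (adjusted p = 0.607). CLDN7, CLDN18 (the claudin of lung and stomach), the scaffold TJP1 (ZO-1) and the polarity protein PARD3 differed from control by between -0.08 and 0.07 in both comparisons. Of the 9 measured genes of this kind, 1 was higher and 2 lower with PIAS3, and 0 higher and 3 lower with the siRNA, at an unadjusted p under 0.05. The shares of all genes were 7.13% and 7.44% with PIAS3 and 2.32% and 3.06% with the siRNA.

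In the desmosome group most genes read slightly lower in both transfected groups. Of 9 genes, 6 with PIAS3 and 7 with the siRNA had negative differences, where 6086 and 6038 of all 11963 genes did. The medians were -0.16 and -0.14. At an unadjusted p under 0.05, 1 was higher and 1 lower with PIAS3, and 0 and 1 with the siRNA. The shares of all genes were 7.13% and 7.44% with PIAS3 and 2.32% and 3.06% with the siRNA. PKP2, a plakophilin that anchors desmosomal cadherins, read 6.54 and 6.71 in the controls, 6.37 and 6.04 with the siRNA, and 5.85 and 6.32 with PIAS3. Its differences were -0.54 ± 0.19 (adjusted p = 0.268) and -0.42 ± 0.19 (adjusted p = 1), and its second probe set gave -0.07 ± 0.14 with PIAS3. PPL (periplakin), which links filaments to the desmosomal plaque, lay the other way, at 7.33 and 7.22 in the controls, 7.16 and 7.61 with the siRNA, and 7.78 and 7.90 with PIAS3. Both PIAS3 arrays were above all others, and the difference of 0.57 ± 0.16 did not pass (adjusted p = 0.191). EVPL (envoplakin), its partner, read 6.53 and 6.39 in the controls, 6.54 and 6.54 with the siRNA, and 6.62 and 6.75 with PIAS3 (0.22 ± 0.11).

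DSP (desmoplakin), the central linker of the desmosome, separated the 2 PIAS3 arrays. It read 10.21 in replicate 1 and 9.04 in replicate 2, while the controls gave 9.60 and 9.38 and the siRNA arrays 9.50 and 8.82. The difference of 0.13 ± 0.37 is a mean of a high and a low array and describes neither. DSG2, PKP3, DSC2 and DSC3 differed from control by between -0.27 and -0.13 in both comparisons by their brightest probe sets. The second probe sets gave -0.34 ± 0.11 for PKP3 and -0.10 ± 0.15 for DSC2 with PIAS3. One array of DSC3 lay within the absent range, so its differences are of limited use.

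EPCAM, an epithelial adhesion molecule, read 7.24 and 7.22 in the controls, 7.12 and 6.04 with the siRNA, and 6.36 and 6.78 with PIAS3. Only siRNA replicate 1 stayed near the controls. The differences were -0.66 ± 0.32 and -0.65 ± 0.32 (adjusted p of 0.424 with PIAS3 and 1 with the siRNA). The siRNA value was -0.12 without siRNA replicate 2 and -1.19 without siRNA replicate 1. SPINT2, an inhibitor of surface serine proteases such as matriptase, read 11.70 and 11.65 in the controls, 11.36 and 11.29 with the siRNA, and 11.19 and 11.33 with PIAS3. Its 4 transfected arrays lay close together below both controls, with differences of -0.41 ± 0.11 (adjusted p = 0.168) and -0.35 ± 0.11 (adjusted p = 0.909). Matriptase itself (ST14) and the related inhibitor SPINT1 differed from control by between -0.05 and 0.15 in both comparisons.

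Among keratins, KRT19, the smallest acidic keratin, read 11.16 and 11.02 in the controls, 10.76 and 9.42 with the siRNA, and 9.02 and 9.34 with PIAS3. The lower siRNA array was close to the PIAS3 arrays and the other close to the controls. The PIAS3 difference of -1.91 ± 0.38 (3.76-fold) had the greatest size of the 40 genes and did not pass (adjusted p = 0.104). It passed in the fit of the PIAS3 and control arrays alone (adjusted p = 0.0163), where 262 of 22215 probe sets were called. It did not pass with array weights (0.0555) or cyclic loess (0.106). The siRNA difference was -1.0 ± 0.38 (adjusted p = 1), with -0.33 without siRNA replicate 2 and -1.67 without siRNA replicate 1.

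The other keratins stayed near control. KRT18 read 13.79 and 13.69 in the controls, 13.60 and 13.66 with the siRNA, and 13.68 and 13.74 with PIAS3, a difference of -0.03 ± 0.11 with PIAS3. KRT7 read 13.33 and 13.27 in the controls, 13.28 and 13.46 with the siRNA, and 13.06 and 13.35 with PIAS3. KRT18 and KRT7 read about as high as VIM, so small differences are a limited measure for them as well. KRT7 and KRT8 differed from control by -0.09 ± 0.13 and -0.05 ± 0.12 with PIAS3, and KRT15, a keratin of basal cells, by -0.15 ± 0.11. Of the 5 measured keratins, KRT19 alone had an unadjusted p under 0.05, in each comparison against control.

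ELF3, an ETS factor of epithelial differentiation, read 9.88 and 9.68 in the controls, 9.89 and 10.02 with the siRNA, and 10.73 and 10.21 with PIAS3. Both PIAS3 arrays stood above all others. The difference was 0.70 ± 0.18 (adjusted p = 0.164), and 0.63 ± 0.14 by the second probe set. It was 0.43 without PIAS3 replicate 1 and 0.96 without PIAS3 replicate 2. GRHL2, a grainyhead factor that keeps junction genes active, lay within the absent range in all 6 arrays, at 3.43 to 3.71. ESRP1, an epithelial splicing regulator, lay just above the range at 4.33 to 4.51. Neither differed between groups by more than 0.09 in size.

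The bases before the start sites of ELF3, CLDN1 and OCLN are shown because these genes lay on opposite sides of control and because SNAI and ZEB proteins bind the E-box. Sequences are from RefSeq on GRCh38.p14, 250 bases up to the base before the start of transcription that lies furthest upstream, in the gene's direction. Capitals mark CAGGTG, the E-box searched, on either strand.
ELF3 at chr1:202010337-202010586 (+): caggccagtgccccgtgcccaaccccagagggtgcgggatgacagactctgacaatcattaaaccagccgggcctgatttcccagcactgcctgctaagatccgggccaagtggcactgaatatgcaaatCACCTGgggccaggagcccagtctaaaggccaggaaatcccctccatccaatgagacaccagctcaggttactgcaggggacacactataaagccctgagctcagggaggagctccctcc
CLDN1 at chr3:190322447-190322696 (-): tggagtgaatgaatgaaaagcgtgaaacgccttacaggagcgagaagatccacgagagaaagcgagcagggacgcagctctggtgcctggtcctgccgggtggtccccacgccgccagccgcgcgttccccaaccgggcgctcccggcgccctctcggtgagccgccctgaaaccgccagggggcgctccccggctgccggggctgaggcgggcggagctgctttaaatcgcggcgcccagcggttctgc
OCLN at chr5:69492297-69492546 (+): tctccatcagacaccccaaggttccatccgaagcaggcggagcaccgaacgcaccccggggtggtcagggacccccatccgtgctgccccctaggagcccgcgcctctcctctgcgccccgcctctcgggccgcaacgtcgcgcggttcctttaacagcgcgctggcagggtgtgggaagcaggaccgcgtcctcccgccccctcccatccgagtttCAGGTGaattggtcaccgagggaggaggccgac
ELF3, which stood above control, and OCLN, which stood below, each held 1 match, and CLDN1 held 0. The match began at position -120 in ELF3 and at -33 in OCLN, counted from the start site. RefSeq windows reaching 50 bases past the start were held for 22 of the 40 genes, and 15 of their 42 windows (35.7%) had a match, against 20.6% of 35116 windows of the same length. CDH1, SNAI2, KRT19 and PODXL were not among the 22. CLDN7, whose level differed by 0.04 ± 0.14 with PIAS3, had matches at -174, -135, -20, -9 and 6 in the window of its later start. OCLN had further matches at -133 and 36 in the window of a later start, which is not printed above. The grainyhead motif AACCGGTT, on both strands, was found in 0 of 42 windows and 0.134% of all. A match describes letters only and does not show that a factor binds there.

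Of the 40 genes, 17 had more than 1 probe set. With PIAS3 against control, the probe sets of CDH2, ELF3 and TJP3 gave like differences. For CDH1 and PKP2 the brighter probe set alone was far from 0, and for ZEB1, PARD3, ST14, KRT7, PKP1 and CLDN18 the probe sets differed in sign. Those of PARD3 gave 0.05, 0.06, -0.21 and -0.25. With the siRNA against control, the TJP3 probe sets gave 0.19 and -0.09. The differences, counts and array levels of these genes are from the brightest probe set unless another is named.

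**Figure D3:**
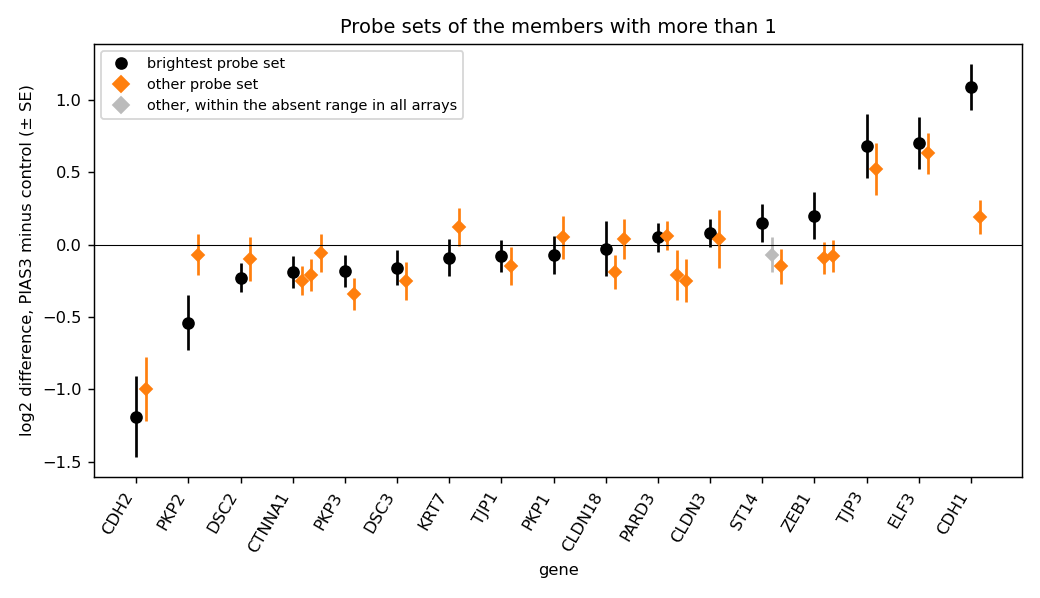
Log2 difference between PIAS3 and control with its SE, for each probe set of the 17 genes with more than 1 (black circles for the brightest, orange diamonds for others, grey where all arrays lay within the absent range). The CDH2 probe sets lie at -1.19 and -1.0, while those of CDH1 lie at 1.09 and 0.19.

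In the arrays labelled STAT3 siRNA, 0 of the 40 genes passed after adjustment in limma, while 0.00450% of probe sets and 0.00836% of genes did. At an unadjusted p under 0.05, 0 were higher and 8 lower (20%), against 5.37% of all genes (2.32% higher and 3.06% lower). The 8 genes were CLDN1, PODXL, SNAI2, SPINT2, CLDN4, KRT19, DSC2 and OCLN. Their number was 3 without siRNA replicate 2, 5 without EGF control replicate 1 and 2 without EGF control replicate 2. Arrays did not overlap for 5 higher and 19 lower genes, against 19.4% and 19.5% of all genes (39.0% together). The median difference was -0.13. Both comparisons against control use the same 2 control arrays, so likeness between them is in part built in.

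The siRNA arrays differed from each other by an SD of 0.39 in these genes and 0.26 over all genes. Of the 29 genes whose PIAS3 and control arrays did not overlap, siRNA replicate 1 lay nearer the control mean than the PIAS3 mean in 16, and replicate 2 in 8. For all genes chosen the same way the shares were 64.7% and 47%. CDH2, EPCAM, KRT19, SNAI2, PODXL, PKP2 and CDH3 were among the genes with a lower level in siRNA replicate 2 than in replicate 1, by more than the controls differed from each other. JUP, PPL and CDH1 were among those with a higher level in replicate 2, also by more than the controls differed.

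All 4 transfected arrays lay below both controls for 16 of the 40 genes and above for 5, against 10.7% and 9.01% of all genes. The 16 included CLDN1, CLDN4, OCLN, DSG2, PKP2, EPCAM, SPINT2, KRT19, SNAI2, VIM and PODXL, so epithelial and mesenchymal genes were both among them. The 5 were CDH1, TJP3, PARD3, EVPL and ELF3. By the second probe sets of TJP3 and ELF3, siRNA replicate 2 read 5.43 and 8.65, below the higher control arrays at 5.68 and 8.66. By the second CDH1 probe set all 4 transfected arrays did lie above both controls. The PARD3 probe set at 0.06 with PIAS3 also held this order, while those at -0.21 and -0.25 did not. By the second PKP2 probe set siRNA replicate 1 read 5.43, above the controls at 5.25 and 5.26.

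**Figure D4:**
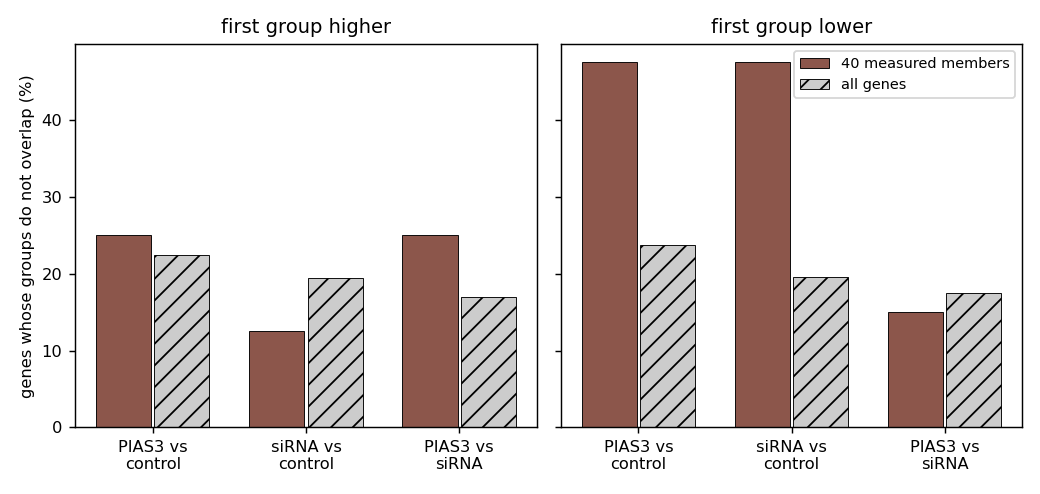
Share of genes (y axis, percent) for which both arrays of the first group lie above (left) or below (right) both arrays of the second, for the 40 measured genes (brown) and for all genes (hatched), in 3 comparisons. Against control, 47.5% of the 40 genes were lower in either transfected group, beside 23.7% and 19.5% of all genes. The genes were chosen with earlier results of these data known, so the shares are no test of the list.

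Between PIAS3 and the siRNA directly, 0 of the 40 genes and 0% of all probe sets passed in limma. At an unadjusted p under 0.05, 5 genes were higher with PIAS3 (CDH1, JUP, PPL, ELF3 and CLDN3) and 3 lower (PODXL, CDH2 and KRT19). That is 20% of the 40 genes, against 8.02% of all genes (4.19% higher and 3.83% lower), and the number was 4 without siRNA replicate 1 or without PIAS3 replicate 1. Arrays did not overlap for 10 higher and 6 lower genes (25% and 15%), against 17.0% and 17.5% of all genes (40% and 34.5% together). The median difference was 0.01. By its second probe set CDH1 differed by -0.08 ± 0.12 in this comparison. For KRT19 the difference of -0.91 ± 0.38 was -0.24 without siRNA replicate 1, and for CDH2 the difference of -0.77 ± 0.28 was -0.33. For SNAI2 the direct difference of -0.39 ± 0.35 turned to 0.21 without siRNA replicate 1, and for EPCAM the difference of -0.01 ± 0.32 turned to 0.53. Without PIAS3 replicate 2, CDH1 (1.06, adjusted p = 0.0277), TJP3 (0.86, 0.0326) and PODXL (-0.99, 0.0485) passed, when 544 probe sets did. A p above the threshold does not show that PIAS3 and the siRNA act alike.

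Other genes of these pathways were taken from 3 lists, and 0 of them passed after adjustment in either comparison against control. Of 34 further adherens and tight junction genes, 1 was higher and 6 lower with PIAS3 at an unadjusted p under 0.05 (20.6% together, against 14.6% of all genes), and 0 and 2 with the siRNA (5.88% against 5.37%). LLGL2, a basolateral polarity protein, read 7.97 and 7.84 with PIAS3 against 7.22 and 7.29 in the controls and 7.25 and 7.34 with the siRNA (0.65 ± 0.11 with PIAS3, adjusted p = 0.0843). VCL (vinculin), which couples junctions to actin, read 10.73 and 11.12 with PIAS3, 11.39 and 11.17 with the siRNA, and 11.83 and 11.78 in the controls (-0.88 ± 0.15 with PIAS3, adjusted p = 0.0873). The cadherin CDH6 and the actin crosslinker ACTN1 stood at -0.82 ± 0.21 and -0.42 ± 0.12 with PIAS3. Of 19 further desmosome and keratin genes, 1 was higher and 0 lower with PIAS3 and 0 and 1 with the siRNA, which is 5.26% in each comparison, against 14.6% and 5.37% of all genes. The latter was KRT16, a keratin of stressed epidermis, at -0.59 ± 0.14 (adjusted p = 0.678).

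Of 32 further EMT regulators and mesenchymal genes, 4 were higher and 8 lower with PIAS3 (37.5% together, against 14.6% of all genes), and 2 and 6 with the siRNA (25% against 5.37%), at an unadjusted p under 0.05. KLF4, a factor of epithelial differentiation, read 9.18 and 9.19 in the controls, 8.0 and 8.39 with the siRNA, and 8.40 and 8.27 with PIAS3. All transfected arrays were lower (-0.99 ± 0.15 with the siRNA, adjusted p = 0.263, and -0.85 ± 0.15 with PIAS3, adjusted p = 0.0873). The matrix crosslinking oxidase LOXL2 stood at -0.80 ± 0.14 and the EMT-inducing ligand TGFB2 at -1.04 ± 0.20 with PIAS3 (adjusted p of 0.0908 and 0.0994). The 4 genes on the higher side were FOXA2, a lung epithelial factor, at 0.73 ± 0.17 (adjusted p = 0.141), SKIL, a repressor of TGF-beta signalling, at 0.67 ± 0.21 (0.222), the TGF-beta signal carrier SMAD2 at 0.39 ± 0.11 (0.181), and SNAI1 (Snail). SNAI1, the relative of SNAI2, read 5.53 and 5.60 in the controls, 5.58 and 5.78 with the siRNA, and 5.97 and 5.82 with PIAS3. Its difference of 0.33 ± 0.12 (adjusted p = 0.289) lay opposite to that of SNAI2. OVOL2, which restrains EMT, and TWIST1, which drives it, differed by -0.34 ± 0.11 and -0.36 ± 0.13 with the siRNA, at adjusted p-values of 0.959 each.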

How the data were processed

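The authors deposited one table of log2 values for 22277 probe sets on 6 Affymetrix arrays. RMA is listed in the submitters' processing notes, without a version. This method adjusts for background, brings the arrays to one distribution and combines the probes of a set, and it compresses very dim and very bright values. No source used here names other software or a genome build. Groups and replicate numbers came from the sample titles.

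After 62 control probe sets were set aside, 22215 were tested in limma 3.58.1 (R 4.3.3) with lmFit and eBayes. All tests are two-sided and come from one fit of 6 arrays, with 3 residual and 4.27 prior degrees of freedom. The number of arrays limits the precision. By the platform annotation 19064 probe sets carried 1 gene symbol, 1043 carried several and 2108 carried none. Of the first, 19052 matched RefSeq by gene identifier and 0 symbols were updated. The fit was tested on simulated data.

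The genes and lists were chosen with earlier results of these data known. CDH1, CDH2, EPCAM, VIM, ZEB1 and SNAI2 were named, and in each comparison and direction those called and up to the 6 with the smallest p. Others (such as DSP, PKP2, KRT18, SPARC and the genes named from the further lists) were chosen after their values were seen. Same-numbered arrays of 2 groups deviated from their group means with correlations of -0.07 to 0.06 across genes, so the numbers were not treated as pairs. Array batches were not tested. Figures used matplotlib 3.10.9 in Python 3.11.15.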

Additional observations from a re-analysis of the deposited data

How the results depend on the processing

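The settings tried were quantile normalization repeated, cyclic loess, a filter on probe sets below the 40th percentile, array weights, a block for the replicate number, a fit of only the 2 groups compared, averaged probe sets, and 1 array less at a time. In the last case the remaining array of that group was taken to vary as the others do. For PIAS3 against control, 22 probe sets were called as reported, 2 with the replicate block, 2 with quantile normalization, 39 with cyclic loess, 2 without dim probe sets, 143 with array weights and 262 with the 2 groups alone, and 0 (without either control) to 1232 (without PIAS3 replicate 2) with an array left out. PODXL was at -1.58 (adjusted p = 0.0677) with the replicate block, which changed no other call among the gene differences named. Of the 40 genes, 9 to 15 had an unadjusted p under 0.05 with an array left out, 9 being without EGF control replicate 2, and their median was -0.18 to -0.08, and -0.14 without dim probe sets.

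For the siRNA against control, 1 probe set was called as reported, 0 with quantile normalization, 0 with cyclic loess, 8 with array weights, 3 with the 2 groups alone and 0 to 5 with an array left out. The count of the 40 genes was 2 to 11 and their median -0.17 to -0.08 with an array left out, and -0.18 without dim probe sets. Between PIAS3 and the siRNA, 0 to 544 (without PIAS3 replicate 2) were called with an array left out, the count was 4 to 10 and the median -0.04 to 0.05.

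Named genes that changed sign had differences near 0, apart from SNAI2 and CDH2. ZEB1 went from 0.41 without PIAS3 replicate 2 to -0.02 without PIAS3 replicate 1 against control. Against the siRNA it went from 0.34 to -0.09 in those settings and was -0.01 with the mean of probe sets. CDH2 with the siRNA was -0.87 without siRNA replicate 1 and 0.01 without siRNA replicate 2, and PARD3 -0.03 with the mean of probe sets. Between PIAS3 and the siRNA, VIM was 0.01 with cyclic loess and KRT7 0.03 with the mean of probe sets. There EPCAM ran from -0.54 without siRNA replicate 2 to 0.53 without siRNA replicate 1, and SNAI2 from -0.98 to 0.21, and EPCAM was 0.21 without PIAS3 replicate 1. The causes were not tested. Over 46 gene differences and 13 alternatives, 10 values changed sign, 6 lost a call and 20 gained one. All 6 lost calls were of PODXL. Leaving out an array of the group not compared gave the same fit as the 2 groups alone, so calls gained there were counted more than once.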
